A study of Mus musculus with 6 samples.

Results

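PTB, the polypyrimidine tract binding protein encoded by Ptbp1, represses many exons that neurons use and other cells skip. The genes described here are 9 hosts of such exons, Src, Clta, Cltb, Dlg4, Hps1, Ktn1, Camk2g, Mink1 and Numb, and the question is whether the total RNA level of the host differs when PTB is depleted. They were chosen by name, as the transcript clusters annotated with exactly 1 of these symbols. This gave 8 measured genes with 1 cluster each, out of 14807 genes with 1 symbol and 17213 transcript clusters in all. Camk2g, the gamma subunit gene of calcium/calmodulin-dependent kinase II, has its only cluster annotated to Usp54 as well, and no value is given for it.

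The RNA came from N2A cells, a mouse neuroblastoma line, and was measured on Affymetrix mouse exon arrays. One group of 3 arrays held RNA from cells treated with an empty vector, and the other group of 3 held RNA from cells treated with a short hairpin RNA (shRNA) against PTB. The labels describe the samples as biological replicates, and blots of PTB protein put the knockdown close to 80%. A control hairpin is not among these samples, so effects of PTB loss and of expressing a hairpin cannot be told apart.

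As background, a repressed exon can affect a host gene in 2 ways. In most hosts, including or skipping the exon changes the protein: the neuronal exon of Src adds residues to its SH3 domain, and the brain forms of the clathrin light chains carry inserts that other tissues lack. In a few hosts the choice decides whether the RNA survives, because one of the forms carries an early stop codon and is degraded by nonsense-mediated decay. Dlg4 is a known case, in which skipping of a PTB-repressed exon leads to decay, and so is Ptbp2, the neuronal paralog of PTB. The values here are gene-level signals, which do not show which exons were included.

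The targeted RNA, Ptbp1, fell to 0.359 times its mean level (3998 ± 539 with empty vector and 1435 ± 472 with PTB shRNA, SD over 3 arrays; log2 difference -1.51, adjusted p = 0.0402, limma). Ptbp2 rose by 0.96 (adjusted p = 0.0288), and Ptbp3, at -0.58, missed the threshold (adjusted p = 0.0543). Summed signal ran from 9098056 to 12509077 per array and was lower on each PTB shRNA array than on each empty vector array, while array medians lay between 183 and 206. The summed signal of 16 measured neuroblastoma and neuronal markers was 25237 to 29608 with empty vector and 24456 to 30358 with PTB shRNA. Most markers of other cell types were dim, with averages over 100 in 2 muscle genes (Tnnt3 at 316 and Actc1 at 136) and 2 glial genes (Olig2 at 155 and Sox10 at 108). They summed to 280 to 365 and 350 to 584 for 9 fibroblast genes, 313 to 405 and 375 to 576 for 9 glial genes, and 102 to 111 and 112 to 148 for 7 leukocyte genes. The sums were 212 to 303 and 247 to 289 for 8 epithelial genes, and 633 to 847 and 731 to 905 for 8 muscle genes. Defining markers such as Gfap, Ptprc and Epcam averaged at or under 16. So did Nefl among the 16 neuroblastoma and neuronal markers, 3 of which averaged under 100. The fibroblast marker Pdgfra rose from 36 ± 6.1 to 102 ± 21.5 (1.17, adjusted p = 0.0342) and the muscle marker Ryr1 from 58.7 ± 5.1 to 99 ± 12.5 (0.62, adjusted p = 0.0468). Of the neuroblastoma and neuronal markers 1 was called higher and 0 lower, where 1.36% and 3.37% of all clusters were called. Their differences ran from -0.64 to 0.87. Differences were positive for 8 of 9 fibroblast and 8 of 9 glial genes, of which 9 and 7 averaged under 100. The medians of these 2 lists, 0.17 and 0.24, were 0.006 and 0.10 after quantile normalization. The part of these markers in the results was not tested.

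Among the 8 measured hosts, Hps1 fell, and none of the others passed the test in either direction. The test was limma's moderated test of log2(signal + 16) across all clusters with Benjamini-Hochberg adjustment, at a threshold of 0.05. Over all clusters it called 3.37% lower and 1.36% higher, and the hosts gave 1 lower and 0 higher. At an unadjusted p under 0.05, 2 hosts were lower (Hps1 and Dlg4) and 2 were higher (Src and Cltb), where 16.9% of all clusters were lower and 8.49% higher. In the same 4 genes the signals of the groups did not overlap. Among all clusters the groups did not overlap for 19%, lower, and for 10.3%, higher. The median log2 difference was -0.11 over the 8 hosts and 0 over all clusters, and the median size of the difference, whatever its sign, was 0.27 and 0.24. After quantile normalization, which gives all arrays the same distribution, the hosts' median was 0.09, Hps1 did not pass (adjusted p = 0.0565) and Cltb did (adjusted p = 0.0361). Of all clusters called on the values as deposited 71.3% were lower, and after quantile normalization 49.5% (2.92% of clusters called higher and 2.87% lower).

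**Figure D1:**
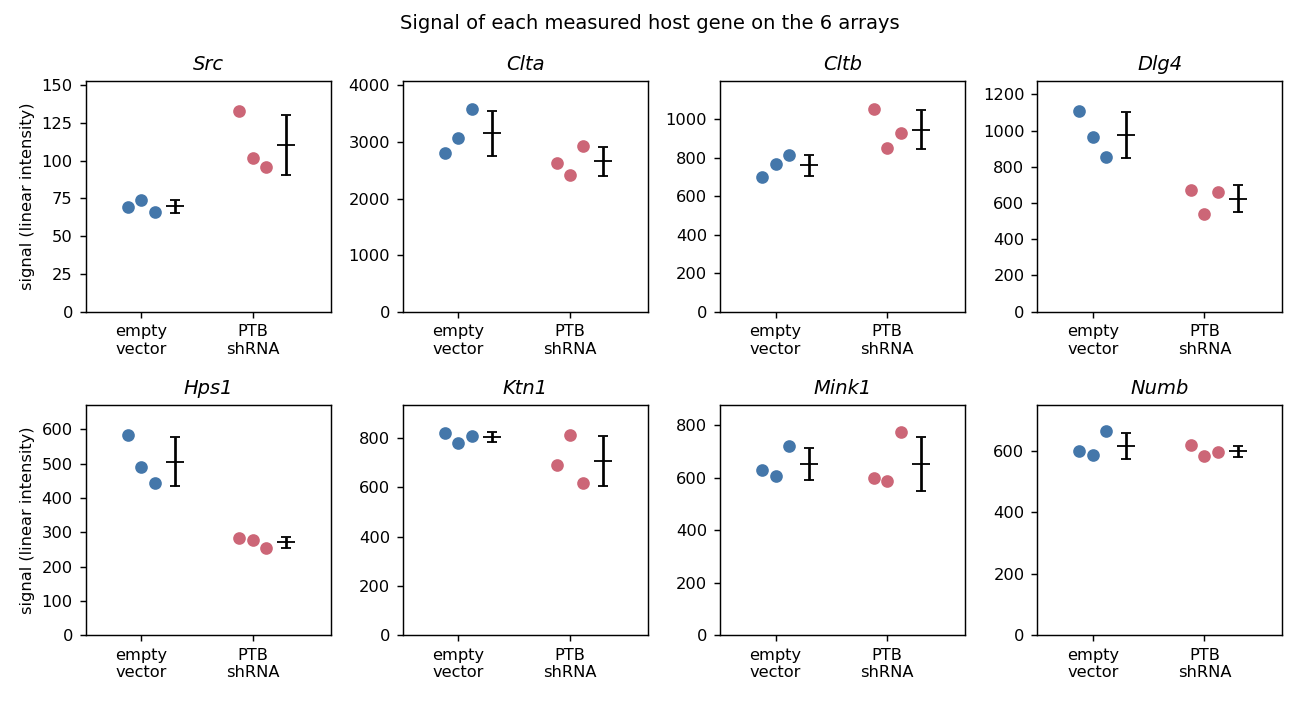
Linear signal of each of the 8 measured host genes on the 6 arrays (vertical axes start at 0). Points are arrays, and the bar beside each group is the mean with its SD (n = 3). The 2 groups do not overlap for Src and Cltb, which are higher with PTB shRNA, or for Dlg4 and Hps1, which are lower.

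**Figure D2:**
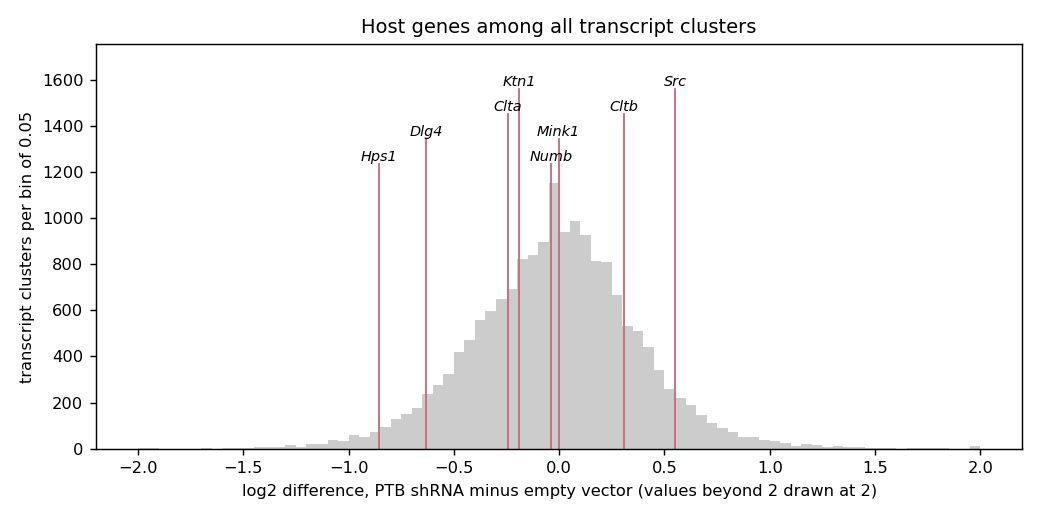
Histogram of the log2 difference (PTB shRNA minus empty vector) of all 17213 transcript clusters in bins of 0.05, with a red line at each host gene. The hosts are spread on both sides of 0, from -0.85 for Hps1 to 0.55 for Src.

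Hps1 encodes a subunit of BLOC-3, the complex that activates the small GTPases Rab32 and Rab38 in making lysosome-related organelles. Signals of 583, 490 and 445 in empty vector cells compare with 283, 278 and 253 in PTB shRNA cells. Every PTB shRNA array was well below every empty vector array, and the spread within the groups was narrower with PTB shRNA. The mean fell from 506 ± 70.4 to 271 ± 16.1 (SD, n = 3). The log2 difference was -0.85 (SE 0.12), with a 95% interval from -1.16 to -0.55 (adjusted p = 0.0342). On the linear scale the mean with PTB shRNA was 0.536 times that with empty vector. Only 2.07% of all clusters had a lower log2 difference. The call ended when any 1 of the 6 arrays was left out, with differences from -0.94 to -0.75 and adjusted p from 0.0638 to 0.12. It also ended with a block for replicate number (adjusted p = 0.084, limma). In bulk RNA like this, fewer cells that express a gene and less RNA per cell cannot be told apart.

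Dlg4 encodes PSD-95, the main scaffold protein of the postsynaptic density at excitatory synapses. Empty vector arrays gave 1109, 964 and 857, and PTB shRNA arrays 674, 538 and 660. All 3 PTB shRNA arrays were lower than all 3 empty vector arrays. The means were 977 ± 126 and 624 ± 74.8, and the log2 difference of -0.63 (SE 0.14, 95% interval from -0.98 to -0.28) missed the threshold (adjusted p = 0.0674). It passed without the dimmest 30% of clusters (adjusted p = 0.0232) and with eBayes set to trend and robust (adjusted p = 0.0171), but not after quantile normalization (-0.45, adjusted p = 0.169). Of all clusters 5.76% had a lower difference. Skipping of the Dlg4 exon and decay of its RNA were not tested, and the lower signal does not measure either.

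Src encodes the founding member of the Src family of non-receptor tyrosine kinases. Empty vector arrays gave 69, 74 and 66, and PTB shRNA arrays 133, 102 and 96. The PTB shRNA arrays were all higher, and array 1 of that group stood above the other two. The means were 69.7 ± 4 and 110.3 ± 19.9, a log2 difference of 0.55 (SE 0.13, 95% interval from 0.22 to 0.88) that did not pass on the values as deposited (adjusted p = 0.075). With each array centred on its median Src passed (0.57, adjusted p = 0.0483), as it did without the dimmest 30% of clusters (adjusted p = 0.0343), and after quantile normalization it did not (0.40, adjusted p = 0.0553). Src was the dimmest of the 8 hosts, brighter than 40.6% of all clusters, so its difference depends on the pseudocount: it was 0.64 with a pseudocount of 1 and 0.42 with 50.

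The clathrin light chains bind the heavy chain of the coat that buds vesicles from the plasma membrane and the Golgi. Clta, which encodes light chain A, measured 2800, 3069 and 3581 on empty vector arrays, against 2624, 2412 and 2929 with the hairpin. The groups overlapped, since 1 PTB shRNA array lay above the lowest empty vector array. The means were 3150 ± 397 and 2655 ± 259.9, a log2 difference of -0.24 (SE 0.13, adjusted p = 0.313), which was 0.02 after quantile normalization. Cltb, which encodes light chain B, measured 702, 767 and 812 on empty vector arrays, against 1053, 852 and 931 with the hairpin. All PTB shRNA arrays were higher, with means of 760.3 ± 55.3 and 945 ± 101. The log2 difference of 0.31 (SE 0.11, 95% interval from 0.02 to 0.59) did not pass on the values as deposited (adjusted p = 0.168), and after quantile normalization it was 0.49 and passed (adjusted p = 0.0361).

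Ktn1, Mink1 and Numb had the smallest differences of the 8 hosts on the values as deposited, and their groups overlapped. Ktn1 encodes kinectin, an endoplasmic reticulum membrane protein that binds kinesin, and measured 820, 780 and 809 on empty vector arrays, against 691, 813 and 616 with the hairpin. PTB shRNA array 2 lay inside the empty vector range and the other two below it, and the log2 difference was -0.19 (SE 0.12, 95% interval from -0.49 to 0.11, adjusted p = 0.385). Mink1, which encodes a germinal centre kinase that acts on the cytoskeleton and stress kinases, measured 628, 606 and 721 on empty vector arrays, against 600, 588 and 773 with the hairpin. In both groups array 3 was the highest and the ranges overlapped, with a log2 difference of 0.00 (SE 0.14, 95% interval from -0.35 to 0.35). Numb encodes an endocytic adaptor that restrains Notch signalling, and measured 599, 585 and 665 on empty vector arrays, against 618, 583 and 595 with the hairpin. The groups overlapped, and the log2 difference of -0.04 (SE 0.09) had the narrowest interval of the 8 hosts, from -0.25 to 0.17. As a ratio of PTB shRNA to empty vector, that interval runs from 0.84 to 1.13 for Numb, against 0.783 to 1.27 for Mink1. Under quantile normalization the differences were 0.01 for Ktn1, 0.19 for Mink1 and 0.16 for Numb, and none passed.

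**Figure D3:**
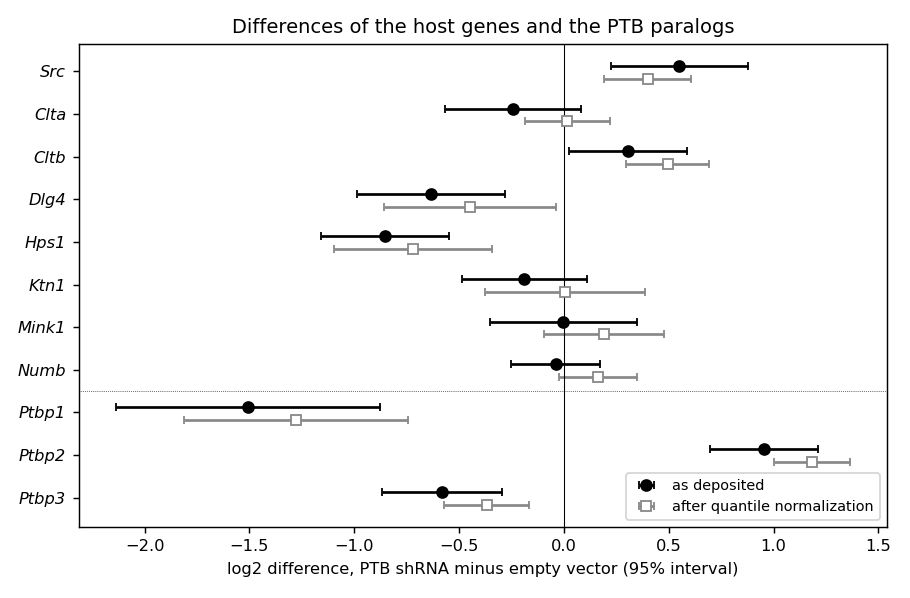
Log2 difference (PTB shRNA minus empty vector) with its 95% interval for the 8 host genes and, below the dotted line, the 3 PTB paralogs. Filled circles are the values as deposited and open squares those after quantile normalization. Hps1 is the host furthest below 0 (-0.85), and the differences of Clta, Ktn1, Mink1 and Numb lie close to 0 with intervals that cross it.

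The promoters of the 4 hosts whose groups did not overlap are shown as annotated, since the arrays do not tell which start site these cells use, with the lower genes Hps1 and Dlg4 first and the higher genes Src and Cltb after them. Each window holds 250 bases before and 50 after the start site furthest upstream in RefSeq on build GRCm38.p6, and capitals mark the E-box CACGTG and the GC box GGGCGG on either strand. The windows are chr19:42779929-42780228 on the minus strand, chr11:70016953-70017252 on the plus strand, chr2:157424043-157424342 on the plus strand and chr13:54611324-54611623 on the minus strand.
Hps1: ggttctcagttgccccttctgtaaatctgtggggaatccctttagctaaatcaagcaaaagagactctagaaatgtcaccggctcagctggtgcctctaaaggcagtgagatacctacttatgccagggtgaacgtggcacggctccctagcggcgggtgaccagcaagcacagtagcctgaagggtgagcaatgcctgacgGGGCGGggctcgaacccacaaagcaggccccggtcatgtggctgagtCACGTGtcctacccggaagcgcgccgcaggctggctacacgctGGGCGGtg
Dlg4: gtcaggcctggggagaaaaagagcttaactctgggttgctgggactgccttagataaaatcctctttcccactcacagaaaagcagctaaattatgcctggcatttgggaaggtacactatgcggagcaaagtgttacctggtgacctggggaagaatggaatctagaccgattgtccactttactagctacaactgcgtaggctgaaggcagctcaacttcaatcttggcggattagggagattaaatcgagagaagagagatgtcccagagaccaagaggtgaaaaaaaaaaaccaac
Src: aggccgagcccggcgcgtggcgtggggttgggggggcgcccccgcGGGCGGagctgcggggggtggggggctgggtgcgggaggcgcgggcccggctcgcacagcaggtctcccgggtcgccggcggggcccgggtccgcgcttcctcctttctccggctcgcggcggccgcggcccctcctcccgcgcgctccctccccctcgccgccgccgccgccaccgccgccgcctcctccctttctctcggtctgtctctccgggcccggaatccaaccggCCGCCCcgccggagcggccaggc
Cltb: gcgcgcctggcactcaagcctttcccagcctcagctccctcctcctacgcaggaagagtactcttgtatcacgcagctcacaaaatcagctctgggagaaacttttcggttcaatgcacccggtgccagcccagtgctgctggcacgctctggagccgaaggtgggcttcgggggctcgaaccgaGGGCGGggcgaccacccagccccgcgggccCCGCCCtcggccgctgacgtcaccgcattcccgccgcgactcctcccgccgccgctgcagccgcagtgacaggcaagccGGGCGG
The Hps1 window holds 1 E-box and 2 GC boxes, the Src window 2 GC boxes and the Cltb window 3, and the Dlg4 window holds neither motif. RefSeq lists 3 start sites for Dlg4 and 2 for Hps1. The E-box is found in 7.2% and the GC box in 35.7% of all 32851 promoter windows of 300 bases, and TATAAA, in none of the 8 hosts' windows at the furthest upstream start, in 13.6%. GC content was 59% for Hps1, 46.3% for Dlg4, 82.3% for Src and 68.3% for Cltb. These matches are a description of the letters only.

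A ratio of 2 bright genes on the same array depends little on how bright that array was, and shows only whether the genes changed unequally; for a dim gene such as Src it also depends on the pseudocount. Hosts were set against a fixed relative or partner, which gave 6 pairs with both genes measured. Mink1 is in none of these pairs, and Cltb enters only as the partner of Clta. The ratio of Clta to Cltb was lower on all 3 PTB shRNA arrays than on all 3 empty vector arrays, by 0.55 on the log2 scale (-0.55, from 2.02 ± 0.08 to 1.48 ± 0.17). It was the single pair of the 6 whose groups did not overlap (two-sided exact permutation p = 0.1, the smallest that 3 arrays against 3 allow, and 0.6 adjusted over 6 pairs). Dlg4 relative to its paralog Dlg1 differed by -0.51 (exact p = 0.3), and Hps1 relative to Hps4, the other subunit of BLOC-3, by -0.31 (exact p = 0.3). Numb relative to its paralog Numbl differed by -0.15 (exact p = 0.5), Src relative to the kinase gene Fyn by 0.13 (exact p = 0.6), and Ktn1 relative to Rrbp1, another endoplasmic reticulum protein gene, by 0.14 (exact p = 0.8). The direction of the last 2 is not settled: Src over Fyn was -0.22 after quantile normalization, and Ktn1 over Rrbp1 was -0.11 without empty vector array 3 and 0.33 without empty vector array 1. With any 1 array left out Clta over Cltb stayed between -0.63 and -0.46, Dlg4 over Dlg1 between -0.72 and -0.35, Hps1 over Hps4 between -0.45 and -0.15, and Numb over Numbl between -0.25 and -0.05. No pair could have passed the threshold in a design of this size.

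**Figure D4:**
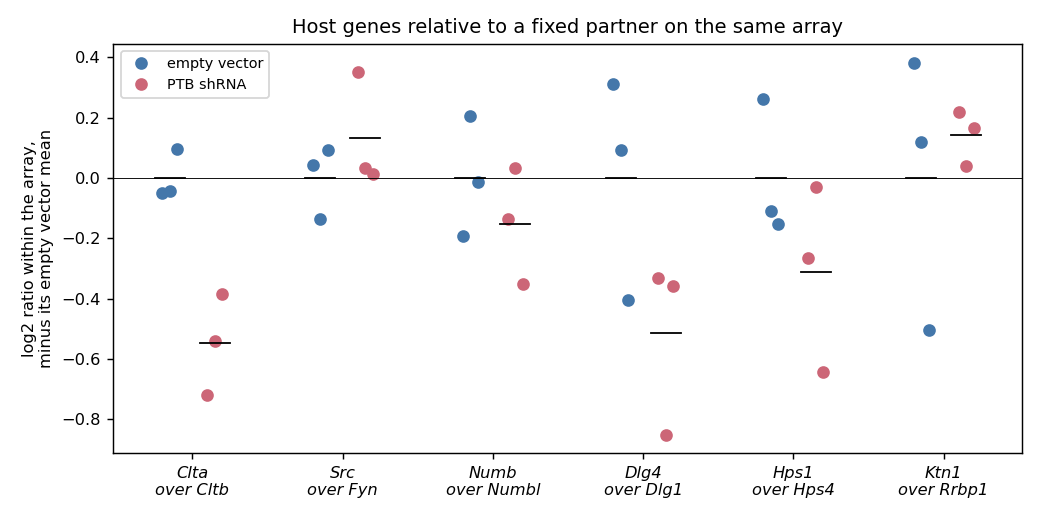
Log2 ratio of a host gene to a fixed partner on the same array for the 6 pairs compared, with the mean of the empty vector arrays set to 0. Points are arrays and short lines group means (n = 3). Clta over Cltb is the pair whose groups do not overlap, with a mean difference of -0.55.

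The genes that work with the hosts were listed by function, 178 genes in 9 lists that also take in other hosts of PTB-regulated exons, and 149 were measured. Of these 5 were higher and 7 lower, or 3.36% and 4.7%, against 1.36% and 3.37% of all clusters. Their median log2 difference was 0.02, which is the value of the dim gene Nlgn1 (32 ± 3 and 32.7 ± 2.3). After quantile normalization 14 were higher and 4 lower, or 9.4% and 2.68%, against 2.92% and 2.87% of all clusters.

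The clathrin list held the most measured genes and the most calls, with 2 of 22 genes higher and 3 lower, and a median of -0.04. Of all clusters 1.36% were higher and 3.37% lower. After quantile normalization 4 of the 22 were higher and 1 lower, with a median of 0.17, where 2.92% and 2.87% of all clusters were. The adaptor genes Ap1g1 (0.67, adjusted p = 0.0279) and Ap2s1 (0.41, adjusted p = 0.046) were called higher then, but not on the values as deposited. Dnm3, a dynamin gene used mainly in brain and testis, rose from 62 ± 2.6 to 126 ± 18.9 (log2 difference 0.85, adjusted p = 0.0342), while Dnm2, the dynamin gene expressed in most tissues, fell from 575 ± 17.4 to 384 ± 23.8 (-0.57, adjusted p = 0.0342). After quantile normalization Dnm2 was at an adjusted p of 0.0513. Dnajc6, which encodes the neuronal uncoating factor auxilin, rose from 118 ± 15.7 to 212 ± 10.7 (0.77, adjusted p = 0.0342). Gak, which encodes the widely expressed form of auxilin, fell from 1041 ± 112 to 638 ± 27 (-0.69, adjusted p = 0.0366). Bin1, which encodes an amphiphysin that bends membranes, also fell (-0.61, adjusted p = 0.049, and 0.0684 after quantile normalization). Other genes of the list used mainly in neurons were not called, among them Dnm1 (-0.11, adjusted p = 0.487) and the adaptor gene Snap91 (0.09, adjusted p = 0.684), and the heavy chain gene Cltc had a difference of -0.02. Ap1g1, Ap2s1, Dnm1, Dnm2, Gak, Bin1, Snap91 and Cltc were picked out after their values were seen.

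Relatives of the other hosts were mostly not called, where 1.36% of all clusters were called higher and 3.37% lower. Of 12 measured Src family kinases and Src regulators 0 were higher and 1 lower: Yes1, a close relative of Src, fell from 806 ± 35.8 to 436 ± 9.6 (-0.86, adjusted p = 0.0224), while Fyn measured 1373 ± 184 and 1829.7 ± 48.6 (0.42, adjusted p = 0.0976). At an unadjusted p under 0.05, 2 genes of that list were higher and 1 lower, where 8.49% of all clusters were higher and 16.9% lower. Of 17 measured postsynaptic scaffold genes 1 was higher, Dlg2, which encodes the PSD-95 relative PSD-93 and rose from 187 ± 35.5 to 436 ± 51.6 (1.16, adjusted p = 0.0336). Dlg1 had a difference of -0.12 (adjusted p = 0.626). Of 18 measured genes of lysosome-related organelle complexes 1 was lower, the BLOC-1 subunit gene Bloc1s5 (-0.54, adjusted p = 0.0477), while the BLOC-3 partner gene Hps4 measured 293 ± 14 and 198 ± 35.5 (-0.54, adjusted p = 0.0866). The median of that list was -0.06, and 12 of its 18 differences were negative, where the median of all clusters was 0. After quantile normalization the medians were 0.11 for the list and 0 for all clusters.

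Of 14 measured genes of kinesin-1 and endoplasmic reticulum shaping, the atlastin gene Atl3, whose product fuses reticulum tubules, fell from 642 ± 56.1 to 377 ± 40.1 (-0.75, adjusted p = 0.0367). Rrbp1 was variable, at 1226 ± 413 and 950.0 ± 190.0 (-0.33, adjusted p = 0.499). In 3 lists limma called no gene on the values as deposited. These were lists of 12 calcium/calmodulin kinase and related genes, 16 germinal centre kinase and JNK pathway genes, and 18 Numb partner and Notch genes. At an unadjusted p under 0.05 they held, in that order, 1 higher and 2 lower, 2 and 4, and 3 and 2. Of all clusters 8.49% were higher and 16.9% lower at that threshold. After quantile normalization 1 gene of the first list was higher, the calcineurin gene Ppp3ca (0.45), and 2 of the second, the kinase genes Map2k4 (0.71) and Mapk10 (0.75). Of all clusters 2.92% were then higher. Ppp3ca, Map2k4 and Mapk10 were picked out after their values were seen. On the values as deposited, the gene with the widest difference in each list was the kinase inhibitor gene Camk2n1 (-0.38, adjusted p = 0.0877), the small GTPase gene Rap2b (0.79, adjusted p = 0.28) and the Notch target gene Hes1 (0.85, adjusted p = 0.105). Signals of Rap2b (11.7 ± 10.1 and 31 ± 16.4) and Hes1 (4.7 ± 3.2 and 22 ± 11.1) were near background. Camk2d, a sister gene of Camk2g, had a difference of -0.18 (adjusted p = 0.204), and Numbl one of 0.11 (adjusted p = 0.727).

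Among 21 measured further hosts of exons reported to respond to PTB, 2 were higher and 1 lower, with a median of 0.06. Of all clusters 1.36% were higher and 3.37% lower. The median of 0.06 is the value of Fas, whose signals were near background (6.3 ± 4.6 and 7 ± 2.6). After quantile normalization 4 of the 21 were higher and 0 lower, with a median of 0.24, where 2.92% and 2.87% of all clusters were. Gabbr1, a GABA-B receptor gene, rose from 682 ± 24.1 to 1043 ± 64.2 (0.60, adjusted p = 0.0337), and the transcription factor gene Mef2a, picked out after its values were seen, rose by 0.57 (adjusted p = 0.0492, and 0.0511 when arrays were centred on their medians). Mapt, which encodes the axonal microtubule protein tau, fell from 2064 ± 78.7 to 1267 ± 136 (-0.70, adjusted p = 0.0357), a call that quantile normalization ended (adjusted p = 0.0696).

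**Figure D5:**
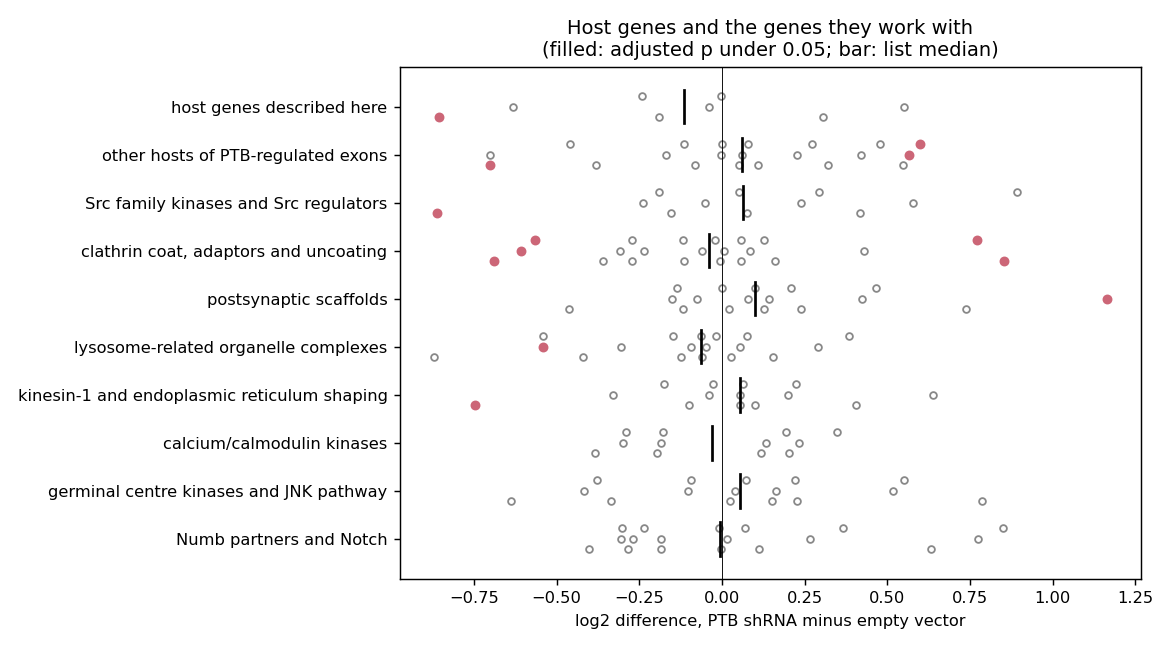
Log2 difference (PTB shRNA minus empty vector) of each measured gene of the 8 hosts and of the 9 lists of genes that work with them or share their mode of splicing. Filled points passed at an adjusted p under 0.05 and black bars are list medians, which run from -0.11 for the hosts to 0.10 for the postsynaptic scaffolds. The scaffold median is the value of Dlgap2, whose signals were near background (8 ± 8.2 and 9.3 ± 4.2). After quantile normalization that list's median was 0.04.

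For the 3 hosts with the widest differences, the genes with the most similar course over the 6 arrays were found by the root mean square difference of centred log2 values, among 8645 or 8646 other genes with a mean signal of at least 100. For Hps1 these were the single-strand DNA binding protein gene Nabp1 (0.095 log2 units away, log2 difference -0.94) and the lysosomal sulfatase gene Galns (0.096, log2 difference -0.89). For Dlg4 they were the cell cycle inhibitor gene Cdkn1a (0.027, log2 difference -0.62) and Fnbp1 (0.056, log2 difference -0.64), which encodes a membrane-bending formin-binding protein. For Src they were the calsyntenin gene Clstn3 (0.041, log2 difference 0.55) and the membrane proteolipid gene Gpm6b (0.048, log2 difference 0.58). Like Src, Clstn3 was highest on PTB shRNA array 1, with 464, 539 and 476 against 875, 690 and 633. Since Clstn3 was picked for its likeness to Src on these arrays, that likeness follows from the choice.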

How the data were processed

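Per the labels' protocols, ribosomal RNA was removed from total RNA before labelling for exon arrays. The authors deposited 1 table of linear intensity per transcript cluster, in whole numbers between -616 and 23431. The submitters' processing notes name GCOS 1.3. The sources used here do not state probe summarisation, background subtraction or scaling, so exon inclusion may also enter a gene's signal. Nothing says that replicates came from separate cultures, so p-values measure the spread between these samples.

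Clusters were named through the platform annotation, and 15088 of 15146 clusters with 1 symbol matched the RefSeq table (GRCm38.p6) by Entrez identifier. Negative values were set to 0, and log2(signal + 16) was fitted with limma 3.58.1 (R 4.3.3) over all clusters, without a block, on 4 residual degrees of freedom. Differences are PTB shRNA minus empty vector and are understated for dim genes. The fit was tested on simulated data. Members and lists were chosen with earlier results of these data known. Named genes were the hosts, PTB paralogs and fixed partners, up to 2 called genes per list (or the 1 with the widest difference), and the 2 nearest genes of 3 hosts. Alternatives were quantile normalization, median centring, pseudocounts of 1 and 50, leaving out the dimmest 30% of clusters, eBayes with trend and robust, a block for replicate number, and omission of each array in turn. No batch is recorded. Plots used matplotlib 3.10.9.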

Additional observations from a re-analysis of the deposited data

How the results depend on the processing

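The number of arrays and the dimness of genes such as Src limit these results. With any 1 array left out, limma called 0 clusters, 0 hosts and 0 partner genes in either direction. At an unadjusted p under 0.05, 1 or 2 hosts were then higher and 2 or 3 lower, where 5.82% to 10% of all clusters were higher and 11.7% to 17.5% lower. The hosts' median ranged from -0.142 to -0.066 in those fits and Hps1 from -0.94 to -0.751. Mink1 turned positive without empty vector array 3 (0.071), PTB shRNA array 1 (0.052) or PTB shRNA array 2 (0.066), as did Numb without empty vector array 3 (0.015), so that Mink1 ranged from -0.127 to 0.071 and Numb from -0.075 to 0.015. The hosts' differences ranged from 0.425 to 0.631 for Src, -0.323 to -0.147 for Clta, 0.226 to 0.377 for Cltb, -0.721 to -0.532 for Dlg4 and -0.293 to -0.097 for Ktn1.

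On the values as deposited 234 clusters were higher and 580 lower, with 0 and 1 hosts and 5 and 7 partner genes. Quantile normalization gave 503 higher and 494 lower, 1 host higher and 0 lower, and 14 and 4 partner genes. Under it the hosts' median was 0.0897, Hps1 was at -0.719 (adjusted p = 0.0565) and Cltb at 0.495 (0.0361), and Clta (0.016), Ktn1 (0.0053), Mink1 (0.191) and Numb (0.163) turned positive without passing. Median centring gave 376 clusters higher and 716 lower. Under it 1 host was higher, Src (0.574, adjusted p = 0.0483), and 1 lower, Hps1 (-0.83, adjusted p = 0.0254), with Mink1 at 0.022. Src over Fyn was 0.221 with a pseudocount of 1, 0.0068 with 50 and -0.221 after quantile normalization. A pseudocount of 1 gave 84 and 132 clusters, 0 hosts lower, and 0 and 1 partner genes, with Hps1 at -0.889 (adjusted p = 0.0505). A pseudocount of 50 gave 322 clusters higher and 930 lower, and 8 and 7 partner genes, with Hps1 at -0.785 (adjusted p = 0.0231). Without the dimmest 30% of clusters there were 503 and 1429 calls, 1 host higher (Src, 0.55, adjusted p = 0.0343) and 2 lower (Hps1 and Dlg4, the latter -0.632, 0.0232), and 9 and 11 partner genes. Trend and robust eBayes gave 463 and 1502 clusters, 2 hosts lower with Dlg4 at -0.632 (0.0171), and 10 and 11 partner genes. The cause of these differences was not tested.

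Same-numbered arrays deviated together in part, with correlations of 0.232, 0.055 and 0.258 for numbers 1 to 3. Arrays with different numbers gave correlations from -0.263 to 0.05, lower than each of these. Because not all same-numbered correlations were over 0.1, the main fit did not take the numbers to pair the samples. Whether they do is not settled. With the replicate block limma called 0 clusters, 0 hosts and 0 partner genes, and Hps1 was at -0.854 (adjusted p = 0.084). At an unadjusted p under 0.05 the block gave 1708 clusters higher and 2963 lower, and 1 host higher and 2 lower.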
